A study of Brachypodium distachyon with 6 samples.

Results

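Primary wall cellulose synthase genes and CSLF6, the mixed-linkage glucan synthase gene, were compared between roots of Brachypodium distachyon fed ammonium and roots fed nitrate. The 5 genes were taken by identifier and name, by a rule that uses no measured value, although earlier results of these data were known when they were chosen. They were CESA1 (BRADI_2g34240v3), CESA2 (BRADI_1g04597v3), CESA3 (BRADI_1g54250v3), CESA6 (BRADI_1g53207v3) and CSLF6 (BRADI_3g16307v3). All 5 were present among the 29627 features of the deposited count table, and all 5 were among the 23694 features that passed the filter on low counts. The table itself pairs identifiers with no gene names, so the names are those of the rule and could not be checked against an annotation. By the naming convention of this species, the digit after the prefix places CESA2, CESA3 and CESA6 on chromosome 1, CESA1 on chromosome 2 and CSLF6 on chromosome 3.

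Cellulose is spun into the wall by complexes of cellulose synthase (CESA) catalytic subunits in the plasma membrane, which draw on UDP-glucose in the cytosol. Complexes that build the primary wall of growing cells use other CESA subunits than those that thicken the secondary wall of xylem and fibres, as worked out first in Arabidopsis. CSLF6 belongs to the cellulose synthase-like F family of grasses and makes mixed-linkage glucan, an unbranched glucose polymer that lies between cellulose fibrils in the walls of grasses and cereals.

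The plants were of the inbred line Bd21, the reference genotype of this model grass, and the labels name no transgene or mutation in either group. Whole roots were collected after 19 days of hydroponic culture that began with seedlings aged 7 days. The ammonium group received 1.25 mM ammonium sulfate and the nitrate group 1.25 mM calcium nitrate, both giving 2.5 mM nitrogen, so the counter-ion changed with the nitrogen source. Each group held 3 poly(A) RNA libraries, each from a pool of 12 seedlings grown in a 4.5 L tank. Whether pools given the same nitrogen source had separate tanks is not stated in the labels, so the p-values reflect differences among these pools, part of which may be technical. Library totals ran from 27525771 to 29547877 counts under ammonium and from 22470936 to 29115598 under nitrate. On the first principal component of all tested features, ammonium replicate 3 (at 49.1) was closer to nitrate than ammonium replicates 1 and 2 (72.8 and 68.1). On the second component replicate 3 of both groups lay apart, at -29.7 under ammonium and -24.3 under nitrate, against 10.9 to 17.4 for replicates 1 and 2. The tissue label was not checked against marker genes, because the features carry no names.

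All 5 genes were lower under ammonium than under nitrate. CSLF6 had the largest fall, to 54.4% of its nitrate level, and CESA2 the smallest, to 70.2%. Each of the 5 passed the threshold, an adjusted p under 0.05 over all tested features (edgeR quasi-likelihood test with Benjamini-Hochberg adjustment), and 0 were higher. Of all tested features, 41.4% were called in either direction and 22.2% were called lower. For each of the 5 genes, all 3 ammonium libraries lay below all 3 nitrate libraries, which held for 27.8% of tested features. Together the 5 genes took 0.174% ± 0.0103 of the reads of ammonium libraries and 0.275% ± 0.0183 of those of nitrate libraries (SD, n = 3 libraries each). In whole roots, fewer cells that express these genes and less of their RNA per cell cannot be told apart.

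Levels are given as CPM, the count scaled to a fixed library total, after scaling of library sizes by the trimmed mean of M-values (TMM). CPM is not corrected for transcript length, so levels were compared between treatments for each gene and not between genes.

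**Figure D1:**
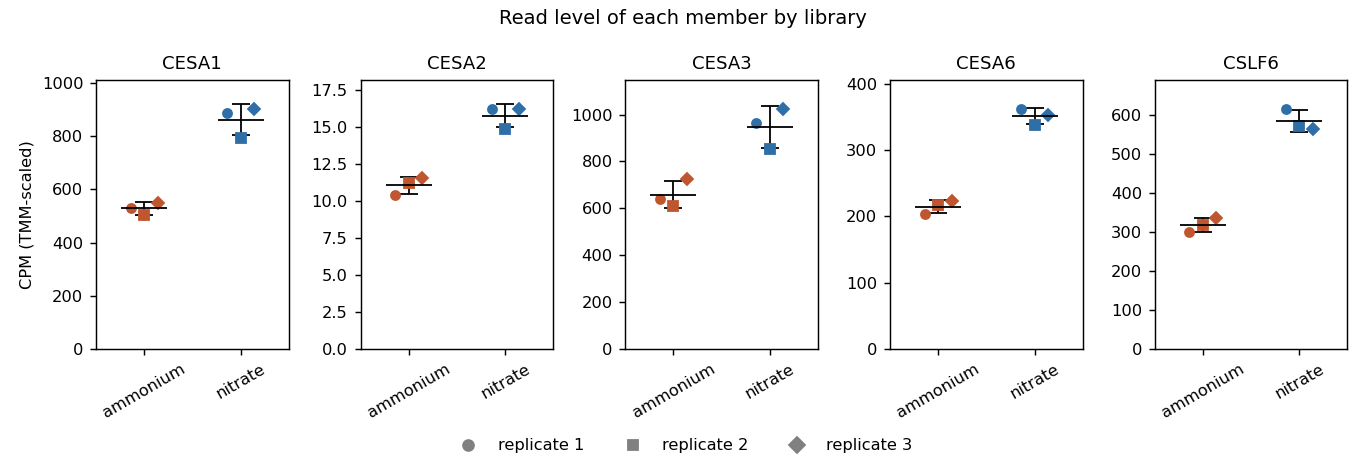
TMM-scaled CPM of each gene in each library, with ammonium left of nitrate; points are libraries, shaped by replicate number, and the bars give the mean and SD of 3 libraries. In every panel the ammonium points lie below the nitrate points, for CSLF6 at 300.2 to 338 CPM against 564 to 617 CPM.

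CESA1, one of the catalytic subunits, stood at 531, 503 and 550 CPM in ammonium replicates 1 to 3, against 886, 794 and 903 CPM in nitrate replicates 1 to 3. The counts behind these values ran from 14025 to 15758 under ammonium and from 20542 to 25351 under nitrate. The groups did not overlap, and the highest ammonium library was at 0.693 of the lowest nitrate library. The mean was 528 ± 23.6 CPM under ammonium and 861 ± 58.8 CPM under nitrate (SD, n = 3 libraries each). The log2 fold change, ammonium over nitrate, was -0.70 (SE 0.09, 95% interval -0.91 to -0.50, edgeR adjusted p = 0.00042), which is 38.7% lower.

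CESA6, another subunit of the primary wall group, changed by almost the same amount. It stood at 203, 217 and 223 CPM in the ammonium libraries, against 362, 338 and 354 CPM in the nitrate libraries. The spread between libraries was narrow in both groups, with a coefficient of variation of 4.72% under ammonium and 3.47% under nitrate, and the groups were well apart. Its log2 fold change was -0.71 (SE 0.08, 95% interval -0.89 to -0.53, edgeR adjusted p = 2e-04), or 38.9% lower.

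CESA3 stood at 640, 610 and 724 CPM in the ammonium libraries, against 964, 852 and 1025 CPM in the nitrate libraries. Of the 5 genes it varied most between libraries of a group, with a coefficient of variation of 8.97% under ammonium and 9.31% under nitrate. Its groups came nearest to each other, since ammonium replicate 3 reached 0.850 of the level of nitrate replicate 2. The log2 fold change was -0.52 (SE 0.11, 95% interval -0.77 to -0.28, edgeR adjusted p = 0.0047), or 30.5% lower. With 1 library left out it ran from -0.60 without ammonium replicate 3 (edgeR adjusted p = 0.0021) to -0.47 without nitrate replicate 3 (edgeR adjusted p = 0.012). Without ammonium replicate 2 it was -0.48, with the highest edgeR adjusted p of these fits, 0.024.

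CESA2 was measured from the fewest reads, 308 to 319 counts per ammonium library and 369 to 463 per nitrate library. It stood at 10.4, 11.2 and 11.5 CPM under ammonium, against 16.2, 14.8 and 16.2 CPM under nitrate. The groups did not overlap, and the libraries within a group differed little. The coefficient of variation was 5.36% under ammonium and 5.02% under nitrate, where counting error alone at these counts gives 5.65% under ammonium and 4.96% under nitrate. For CESA1, CESA3, CESA6 and CSLF6, counting error alone gives at most 1.28%, below the spread seen in either group. The log2 fold change of CESA2 was -0.51 (SE 0.10, 95% interval -0.73 to -0.29, edgeR adjusted p = 0.0032), or 29.8% lower.

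CSLF6 stood at 300.2, 317 and 338 CPM in the ammonium libraries, against 617, 573 and 564 CPM in the nitrate libraries. Its counts were 8847 to 9342 under ammonium and 12819 to 17668 under nitrate. Every ammonium library was at 0.486 to 0.599 of any nitrate library, so the gap between groups was wide against the spread within them. The mean was 318 ± 18.7 CPM under ammonium and 585 ± 28.7 CPM under nitrate (SD, n = 3 libraries each). The log2 fold change was -0.88 (SE 0.09, 95% interval -1.07 to -0.68, edgeR adjusted p = 0.00011), or 45.6% lower, with an interval of 37.6% to 52.5%.

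**Figure D2:**
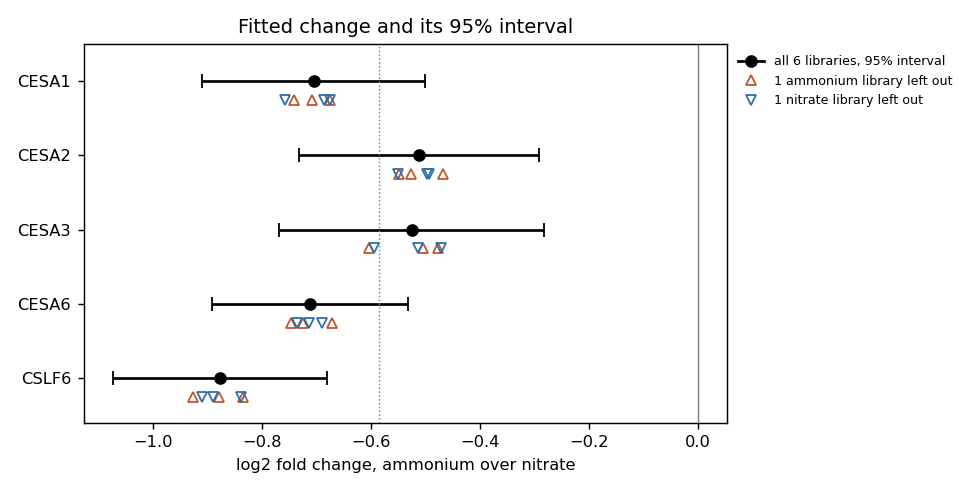
Fitted log2 fold change, ammonium over nitrate, of each gene with its 95% interval (black), and the same value with 1 ammonium or 1 nitrate library left out (open triangles); the dotted line marks a 1.5-fold fall. All intervals lie below 0, and the interval of CSLF6 alone lies wholly beyond the dotted line.

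A fall of more than 1.5-fold was shown for CSLF6 only. When the test asked for a change beyond 1.5-fold (glmTreat of edgeR, chosen after the data had been seen), CSLF6 passed with an adjusted p of 0.01. CESA6 gave 0.14, CESA1 0.2, and CESA2 and CESA3 each 1. Of all tested features, 7.35% were called lower by this test. For the 4 CESA genes the intervals reach from falls under 1.5-fold to falls above it, so these data do not place them on either side.

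The falls were of middling size among the features called lower, and all 5 lay below the interquartile range of all tested features. The median log2 fold change of the 5 genes was -0.70 and that of the 4 CESA genes -0.61, against 0.0037 over all tested features, whose interquartile range ran from -0.35 to 0.30. A lower log2 fold change than that of CSLF6 was found for 9.79% of tested features, and a lower one than that of CESA2 for 18.7%. Among the features called lower, 41.6% had a lower value than CSLF6 and 71.3% a lower value than CESA2. Lower calls were more frequent among abundant features. In the abundance range spanned by CESA6, CSLF6, CESA1 and CESA3, from 283 to 803 CPM over all libraries, 39.0% of 374 features, these 4 included, were called lower and the median log2 fold change was -0.18. In the wider range that takes in CESA2, from 13.4 to 803 CPM, 25.3% of 11867 features were called lower and the median was -0.0030.

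**Figure D3:**
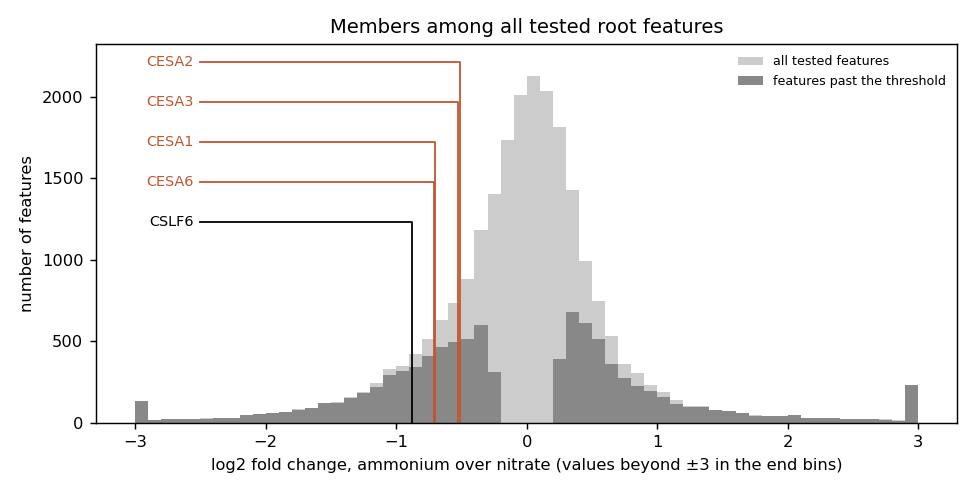
Number of features by log2 fold change, ammonium over nitrate, for all 23694 tested features (light) and those past the threshold (dark), with the 5 genes marked; values beyond 3 in either direction are counted in the end bins. The CESA genes lie in 2 close pairs at -0.70 and -0.71 and at -0.52 and -0.51, and CSLF6 lies lower, at -0.88. The pairs were seen in these values, and the fitted intervals of the CESA genes all overlap.

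Ratios between the genes were compared between treatments. The count ratio of 2 genes within a library is free of library scaling, and its change between treatments is free of transcript length. Of the 10 ratios among the 5 genes, 6 had no overlap between ammonium and nitrate libraries. Among all pairs of tested features in the abundance range of the 5 genes 62.4% had none, and among pairs of features that were both called lower 51.5% had none. The count of 6 is thus near the background, and the ratios share genes and are not independent of each other. The 6 ratios without overlap all gave a two-sided p = 0.1 by exact permutation, and this test can give no smaller p for 3 libraries against 3.

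Within the CESA genes, the ratios that differed least were those of CESA6 to CESA1 and of CESA3 to CESA2. The log2 ratio of CESA6 over CESA1 averaged -1.30 ± 0.09 under ammonium and -1.29 ± 0.06 under nitrate (SD, n = 3 libraries each), a difference of -0.0080 (exact permutation test, p = 0.9). The 9 differences between single libraries for this ratio ran from -0.15 to 0.14. The log2 ratio of CESA3 over CESA2 averaged 5.89 ± 0.11 under ammonium and 5.91 ± 0.07 under nitrate (SD, n = 3 libraries each), a difference of -0.013 (exact permutation test, p = 0.8), with single differences from -0.22 to 0.13. Neither p shows that the genes of a pair changed alike, and unequal changes of that size are not detectable here.

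The other ratios within the CESA genes differed more, which follows from picking those pairs as the ones that differed least. The log2 ratio of CESA3 over CESA1 was 0.27, 0.28 and 0.40 in ammonium replicates 1 to 3, against 0.12, 0.10 and 0.18 in nitrate replicates 1 to 3. Every ammonium library was above every nitrate library, and the mean difference was 0.18. CESA2 over CESA1 differed by 0.19, also without overlap. CESA6 over CESA2 stood at 4.29, 4.27 and 4.28 in the ammonium libraries and at 4.49, 4.51 and 4.45 in the nitrate libraries, a difference of -0.20. CESA6 over CESA3 differed by -0.19, but ammonium replicate 2, at -1.49, lay above nitrate replicate 3, at -1.54, so that this ratio overlapped (exact permutation test, p = 0.2). Between libraries of the same replicate number the ratio of CESA6 over CESA3 differed by -0.24, -0.16 and -0.16, lower under ammonium in 3 of 3.

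CSLF6 was also lower in ammonium roots relative to the mean of the CESA genes. Its log2 CPM minus the mean log2 CPM of the 4 CESA genes was 0.87, 0.94 and 0.91 in ammonium replicates 1 to 3, against 1.21, 1.25 and 1.06 in nitrate replicates 1 to 3. The groups did not overlap, and nitrate replicate 3 was the nitrate library nearest to the ammonium ones. The difference was -0.27, so the ratio in ammonium roots was 0.832 of that in nitrate roots. It was -0.32 without nitrate replicate 3 and -0.27 without ammonium replicate 3. Taken singly, the log2 ratio of CSLF6 to CESA2 differed by -0.37, to CESA3 by -0.35 and to CESA6 by -0.17, each without overlap. To CESA1 it differed by -0.17 with overlap, since nitrate replicate 3, at -0.68, lay below ammonium replicate 2, at -0.66 (exact permutation test, p = 0.2). Between libraries of the same replicate number it differed by -0.30, -0.19 and -0.024, lower under ammonium in 3 of 3. Lack of overlap in single ratios does not by itself mark out CSLF6. It was found for 62.4% of all feature pairs in the abundance range of these genes. Among pairs in this range with both features called lower, it was found for 51.5%. How often other features lack overlap relative to a mean of several genes was not tested.

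**Figure D4:**
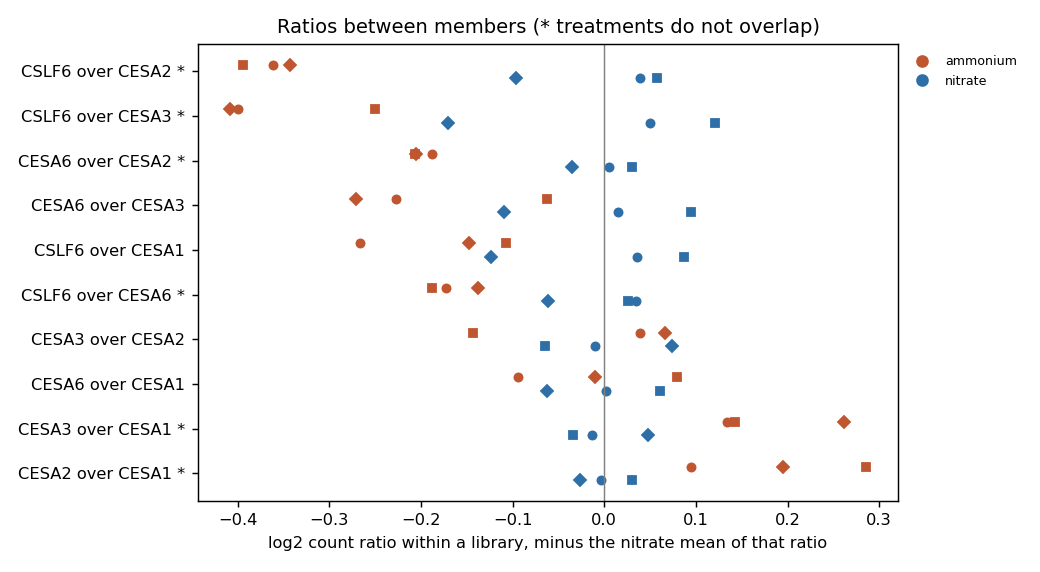
Log2 count ratio of each pair of genes within each library, shown as the distance from the nitrate mean of that ratio, with ammonium points above nitrate points in each row; symbols mark replicate numbers as circle, square and diamond for 1, 2 and 3. Ratios with CSLF6 on top lie to the left under ammonium, and CESA6 over CESA1 and CESA3 over CESA2 straddle 0.

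Shares of the summed counts of the 5 genes, which weight long transcripts more, come from the same counts as the ratios. They restate the shift and give it no separate support, and a lower share of any gene raises the others. How often such shares lack overlap in other sets of genes was not tested. CSLF6 held 18.4% ± 0.668 under ammonium and 21.2% ± 1.36 under nitrate (SD, n = 3 libraries each), without overlap. CESA2 held 0.639% ± 0.0330 under ammonium and 0.571% ± 0.00531 under nitrate (SD, n = 3 libraries each), without overlap. CESA3 held 38.0% ± 1.22 under ammonium and 34.3% ± 1.40 under nitrate (SD, n = 3 libraries each), also without overlap. The shares of CESA1, at 30.5% ± 0.884 under ammonium and 31.2% ± 0.350 under nitrate, and of CESA6, at 12.4% ± 0.587 under ammonium and 12.7% ± 0.402 under nitrate, overlapped (SD, n = 3 libraries each).

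Within a treatment, the libraries differed in how many of the 5 genes stood above the group mean. All 5 were above their ammonium mean in ammonium replicate 3, by 0.06 to 0.14 on the log2 scale, as were 68.9% of all features called lower. In ammonium replicate 1 only CESA1 was above the mean, and in ammonium replicate 2 only CESA2 and CESA6, against 32.7% and 44.0% of the features called lower. All 5 were below their nitrate mean in nitrate replicate 2, by 0.03 (CSLF6) to 0.15 (CESA3), where 58.0% of the features called lower were above theirs. In nitrate replicate 1 all 5 were above the mean and in nitrate replicate 3 all but CSLF6, against 61.9% and 33.8% of the features called lower. Ammonium replicate 3 lay nearer to nitrate on the first principal component and, together with nitrate replicate 3, apart on the second. The part of ammonium replicate 3 in the smaller fall seen there was not tested. Without it, the log2 fold changes were -0.74 for CESA1, -0.55 for CESA2, -0.60 for CESA3, -0.75 for CESA6 and -0.93 for CSLF6, and all 5 genes stayed past the threshold of the edgeR test. Without nitrate replicate 2 they were -0.76, -0.55, -0.59, -0.74 and -0.89 in the same order, also larger falls for all 5. Leaving out any other single library did not enlarge the fall of all 5. Between libraries of the same number, the ammonium level was below the nitrate level in 15 of 15 ratios, from 0.486 for CSLF6 in replicate 1 to 0.757 for CESA2 in replicate 2.

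Profiles over the 6 libraries were compared as the root mean square difference of log2 CPM after centring each feature. The nearest of 9852 features of at least 20 CPM to the mean profile of the CESA genes was BRADI_1g07060v3, at 0.019, which fell by 0.61 on the log2 scale (SE 0.08, edgeR adjusted p = 0.00041). The nearest to CSLF6 was BRADI_1g55770v3, at 0.037, with a log2 fold change of -0.88 (SE 0.09, edgeR adjusted p = 0.00016). Each CESA gene lay at 0.07 to 0.09 from the mean profile of the other CESA genes, and 0.883% to 1.64% of the 9852 features lay nearer to that mean. CSLF6 lay at 0.15 from the CESA mean, and 8.02% of features lay nearer. These are likenesses over 6 libraries that fall into 2 groups, given as a description.

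Neighbouring loci changed in both directions. Of the 50 nearest tested loci, 5 on each side of each gene in locus order, 15 were called lower and 9 higher, and 26 did not pass the threshold, where 22.2% of all tested features were called lower and 19.2% higher. Their median log2 fold change was -0.0094. The loci next to a member differed from case to case. Beside CESA1, the following locus fell by 0.69 on the log2 scale and the preceding one had -0.20 and did not pass. Beside CESA6, the preceding locus fell by 0.99 and the following one by 0.23. Beside CESA3, the preceding locus fell by 0.54, while the following one rose by 0.89. Beside CESA2, the preceding locus rose by 0.32 and the following one had -0.24 and did not pass. Beside CSLF6 the preceding locus fell by 0.29 and the following one rose by 0.65. No source used here gives the counting options, so reads shared between overlapping or similar genes, including the CESA genes among themselves, were not tested.

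**Figure D5:**
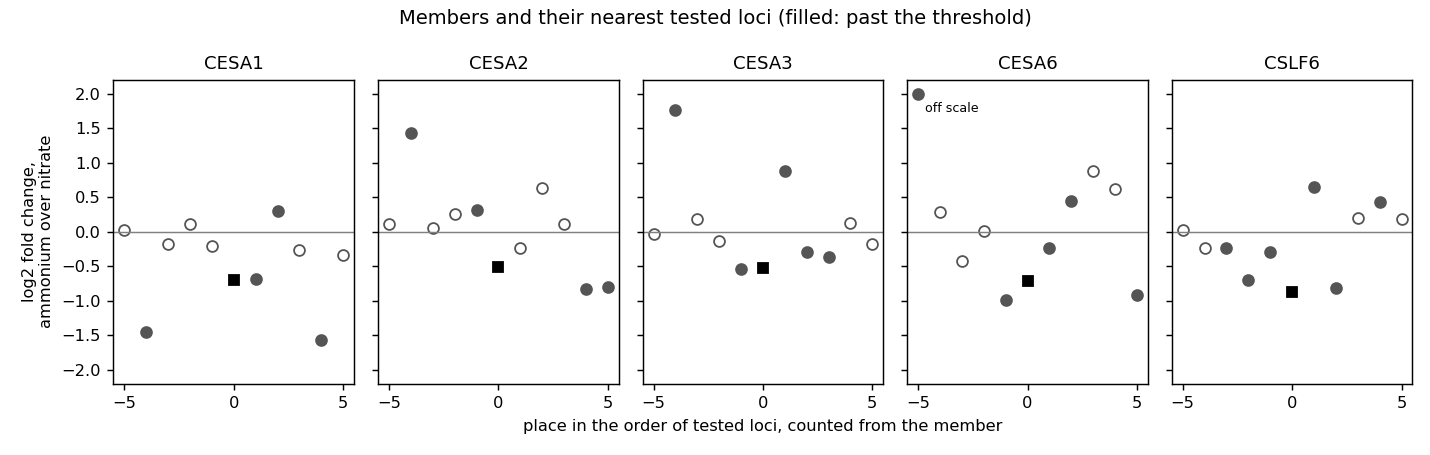
Log2 fold change, ammonium over nitrate, of each gene (square) and of the 5 nearest tested loci on each side (circles) by place in locus order; filled symbols passed the threshold, and a locus at 7.14 near CESA6 is drawn at the upper edge. The neighbours scatter on both sides of 0 around every gene.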

How the data were processed

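The deposited data are raw read counts, 1 table with a column for each of the 6 libraries. The submitters' processing notes name HISAT2 and HTSeq. The genome build, the annotation and the versions and options of these tools were not given in the sources used here. No feature identifier (0 of 29627) matched the RefSeq gene table of 31335 genes (assembly Brachypodium_distachyon_v3.0), with or without the version suffix. Product names, lengths and sequences were therefore not used, and 0 of 6 lists of other wall genes planned on product names were tested.

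The main test was edgeR's quasi-likelihood F test (version 4.0.16 in R 4.3.3), fitted to all 6 libraries with a single term for nitrogen source. Features were kept by filterByExpr (minimum count 10, minimum total 15), which removed 5933, and libraries were scaled by TMM. SE is the fold change over the square root of F, and 95% intervals use the t quantile of the test. Log2 CPM carried a prior count of 2, and 0.5 was added to counts for the ratios over all feature pairs. The test was checked on simulated counts, in which far fewer features changed than were called here and no replicate effect was set. Its error rate with as many changes as here was not tested.

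The members, lists and tests were chosen with earlier results of these data known. The named features are the 5 members and the feature nearest in profile to the CESA mean and to CSLF6, kept to 2 identifiers because none carries a name. Replicates were compared in pairs for repeated deposits, and the chi-square per degree of freedom was at least 6.62, so all 6 were kept. Libraries of the same replicate number deviated together over tested features (r = 0.13, 0.21 and 0.11, against -0.13 to -0.02 for different numbers). The pairing is thus read from the data, not from the labels, and a fit with this number as a block was an alternative. Other alternatives were limma 3.58.1 (voom), DESeq2 1.42.0, other scalings and filters, robust dispersions and each library left out. Counting error covers reads only, since they carried no molecular identifiers.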

Additional observations from a re-analysis of the deposited data

How the results depend on the processing

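The 5 genes stayed lower under ammonium and past the threshold in all 15 planned refits, which changed scaling, filter, tool, dispersions or replicate block, or left out 1 library. The highest adjusted p over these refits was 0.0033 for CESA1, 0.019 for CESA2, 0.024 for CESA3, 0.0017 for CESA6 and 0.001 for CSLF6. Leaving out 1 library gave log2 fold changes of -0.76 to -0.67 for CESA1, -0.55 to -0.47 for CESA2, -0.60 to -0.47 for CESA3, -0.75 to -0.67 for CESA6 and -0.93 to -0.83 for CSLF6. With the replicate number as a block the values were -0.70, -0.51, -0.52, -0.71 and -0.88 in the same order, 10526 features were called in place of 9800, and no member's call changed. Other scalings shifted the median log2 fold change of all features by no more than 0.017. The test for a change beyond 1.5-fold, added after seeing the data, called 2927 features and 1 of the 5 genes (CSLF6). By the construction of that test, CESA1 (-0.70), CESA2 (-0.51), CESA3 (-0.52) and CESA6 (-0.71) kept their values and lost the call. CSLF6 relative to the CESA mean stayed between -0.32 and -0.23 with 1 library left out, at -0.26 with a prior count of 0.5 and at -0.25 against summed CESA counts. The depth limits CESA2 most, where the spread between libraries was near counting error.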
